A study of Mus musculus with 9 samples.

Results

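The genes described here make the sugar nucleotides UDP-N-acetylglucosamine and UDP-glucuronic acid and join them into hyaluronan, in 3T3-L1 pre-adipocytes, a line of mouse fibroblasts used as a model of fat cell formation. The 10 genes are Gfpt1, Gfpt2, Gnpnat1, Pgm3, Uap1, Nagk, Ugp2, Ugdh, Has1 and Has2, out of 22180 genes named by a single symbol on the arrays. They were picked by name for their place in the pathway, with earlier results of these data known, so counts over them describe the genes and are not independent evidence. The probe set of a gene was to be chosen by mean brightness, which decided nothing here, because each of the 10 had 1 probe set of its own. All 10 were bright enough to be tested, together with 12620 other genes. Gnpnat1 and Has2 also lie on 1 further probe set each that is shared with a neighbouring or antisense gene, and that shared probe set was not used.

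Expression was measured on 9 single-colour arrays, 3 in each of 3 groups of growth-arrested, confluent pre-adipocytes. In the first group the cells had been transfected with an siRNA against CD24, a glycoprotein of the cell surface whose mouse gene is Cd24a, and then received 0.5 mM IBMX with 1 µM dexamethasone (Dex) for 6 h. The second group received a scrambled siRNA and the same IBMX and Dex, and the third group received vehicle. IBMX is a phosphodiesterase inhibitor that raises cAMP, and Dex is a synthetic glucocorticoid. Since both agents were always given together, their shares in a difference from vehicle cannot be told apart. Whether vehicle cells were transfected is not given by the labels, so transfection and IBMX/Dex cannot be told apart in the comparisons with vehicle either. Nor do the labels say that replicates were separate cultures, and the p-values therefore measure the spread between these samples, which may be technical.

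Values are on the log2 scale as the authors deposited them, so a difference of 1 is a 2-fold difference, and values of different probe sets were not compared with each other. A gene was called where limma's Benjamini-Hochberg adjusted p over the 12630 genes tested was under 0.05. Arrays with the same replicate number deviated together from their group means, so a second fit with the number as a block is given wherever it changes a call of the 10 genes or of a list gene named here, and as counts for gene lists. Values are listed in the order of replicate numbers 1, 2 and 3.

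Cd24a, the target of the siRNA, had 10.15, 10.16 and 11.72 in CD24 siRNA cells, 11.19, 11.73 and 11.81 in scrambled siRNA cells, and 8.88, 9.92 and 9.49 in vehicle cells. The array labelled CD24 siRNA replicate 3 thus lay among the scrambled siRNA arrays for the gene that its siRNA targets, which goes against its label. CD24 siRNA minus scrambled siRNA gave -0.90 ± 0.43 for Cd24a (SE, limma adjusted p = 1) and -1.42 without that array. The calls of the 10 genes and the totals over the gene lists that use that array are therefore given with and without it. For single lists this holds for the counts without the block, and their counts with the block include that array. Array medians lay between 6.47 and 6.56. Of 8 pre-adipocyte and fibroblast markers 7 were tested, whereas Zfp423 was below the level set for testing. Pdgfra averaged 10.85 in CD24 siRNA cells and 10.92 in scrambled siRNA cells against 11.96 in vehicle cells, and Pdgfrb 9.88 in CD24 siRNA cells and 9.83 in scrambled siRNA cells against 11.49 in vehicle cells, so that both fell with IBMX/Dex (limma adjusted p = 0.016 for Pdgfra and 0.00206 for Pdgfrb in CD24 siRNA cells, 0.0185 and 0.00154 in scrambled siRNA cells). The other 5, Col1a1, Col1a2, Thy1, Dlk1 and Vim, were not called against vehicle in either group (adjusted p 0.0663 to 0.733). The part of these marker differences in the results was not tested. Of 7 mature fat cell markers Cfd was not named by a single symbol on the arrays. Adipoq (mean 5.51), Plin1 (6.33), Cidec (5.70) and Lep (5.69) were below that level, and Fabp4 (9.60) and Lpl (11.08) were above it. These are summed levels of a culture, in which fewer cells expressing a gene and less RNA per cell cannot be told apart.

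Hexosamine synthesis starts when glutamine:fructose-6-phosphate transaminase, made by Gfpt1 and Gfpt2, moves an amino group from glutamine to a hexose phosphate, and this step limits the rate of the pathway. Gnpnat1 then adds the acetyl group, Pgm3 moves the phosphate, and Uap1 joins the product to UTP to give UDP-N-acetylglucosamine, while Nagk returns salvaged N-acetylglucosamine to the same route. Ugp2 makes UDP-glucose, and Ugdh oxidises it to UDP-glucuronic acid. Hyaluronan synthases such as Has1 and Has2 alternate both UDP-sugars into hyaluronan, a long unsulphated glycosaminoglycan of the space around mesenchymal cells. UDP-N-acetylglucosamine is also used for glycosylation of proteins, and UDP-glucose for glycogen.

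Promoters are shown for the 2 genes with the highest fold changes against vehicle, Uap1 and Gfpt2, and for Has1, the gene among the 8 with a promoter entry whose window holds the full cAMP response element. They come from RefSeq (GRCm38.p6), run from 250 bases before to 50 bases after the start of the gene and are written 5′ to 3′ on the gene's strand. The Uap1 promoter is chr1:170174915-170175214 on the minus strand, that of Gfpt2 is chr11:49793905-49794204 on the plus strand, and that of Has1 is chr17:17855139-17855438 on the minus strand. Capitals mark matches to the motifs searched on both strands, which were the cAMP response element TGACGTCA, its core TGACG, the core of the glucocorticoid response element AGAACA, and TGACGTG, the core of an element bound in the unfolded protein response.
Uap1: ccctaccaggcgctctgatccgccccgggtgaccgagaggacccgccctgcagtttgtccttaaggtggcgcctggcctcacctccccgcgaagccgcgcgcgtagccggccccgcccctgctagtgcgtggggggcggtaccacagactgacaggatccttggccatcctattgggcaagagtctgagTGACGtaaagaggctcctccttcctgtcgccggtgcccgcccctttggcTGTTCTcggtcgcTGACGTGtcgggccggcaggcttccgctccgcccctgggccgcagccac
Gfpt2: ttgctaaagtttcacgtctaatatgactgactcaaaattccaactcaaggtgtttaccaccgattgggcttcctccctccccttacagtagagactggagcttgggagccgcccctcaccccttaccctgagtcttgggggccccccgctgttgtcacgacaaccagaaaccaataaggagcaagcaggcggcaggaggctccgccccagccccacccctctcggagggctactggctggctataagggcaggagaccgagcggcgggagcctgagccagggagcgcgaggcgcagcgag
Has1: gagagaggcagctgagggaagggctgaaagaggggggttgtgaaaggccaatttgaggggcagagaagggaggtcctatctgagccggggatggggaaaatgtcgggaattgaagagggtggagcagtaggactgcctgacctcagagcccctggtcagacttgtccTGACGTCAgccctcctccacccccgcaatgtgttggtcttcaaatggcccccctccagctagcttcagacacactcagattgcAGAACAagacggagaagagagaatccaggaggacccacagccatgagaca
Counting from the start base as 0, the Uap1 promoter held TGACG at -61 and at 1, the second of these as part of TGACGTG, and AGAACA on the opposite strand at -12. Has1 held TGACGTCA at -83, which contains TGACG on either strand, and AGAACA at 0. No match to the 4 motifs lay in the window of Gfpt2, nor in those of Gfpt1, Pgm3, Nagk, Ugdh and Ugp2, the last with 2 entries. Of all 32851 promoters of that RefSeq set, 20.8% hold TGACG, 19.0% AGAACA, 2.01% TGACGTG and 1.79% TGACGTCA. Gnpnat1 and Has2 had no entry. A match describes letters in the window and not a bound site.

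Against vehicle, the first and last enzymes of hexosamine synthesis and the enzyme that makes UDP-glucuronic acid were higher in both IBMX/Dex groups, led by Uap1 at 7.14-fold in CD24 siRNA cells and 7.18-fold in scrambled siRNA cells. In CD24 siRNA cells 4 of the 10 genes were called, all higher, where 6.65% of all genes tested were called, 2.92% higher and 3.73% lower. In scrambled siRNA cells 5 of the 10 were called, 4 higher and 1 lower, beside 6.94% of all genes tested, of which 3.33% were higher and 3.6% lower. The 4 genes that rose were Gfpt1, Gfpt2, Uap1 and Ugdh in each comparison, and the 1 that fell was Nagk. Both comparisons use the same vehicle arrays, so they are not independent of each other. With the replicate block 8 of the 10 were called in CD24 siRNA cells (5 higher and 3 lower, beside 22.4% of all genes, 10.4% higher and 12.1% lower) and 8 in scrambled siRNA cells (6 higher and 2 lower, beside 23.3%, 11.9% higher and 11.4% lower). The median log2 fold change over the 10 genes was 0.48 in CD24 siRNA cells and 0.52 in scrambled siRNA cells, beside 0.02 over all genes tested in each.

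**Figure D1:**
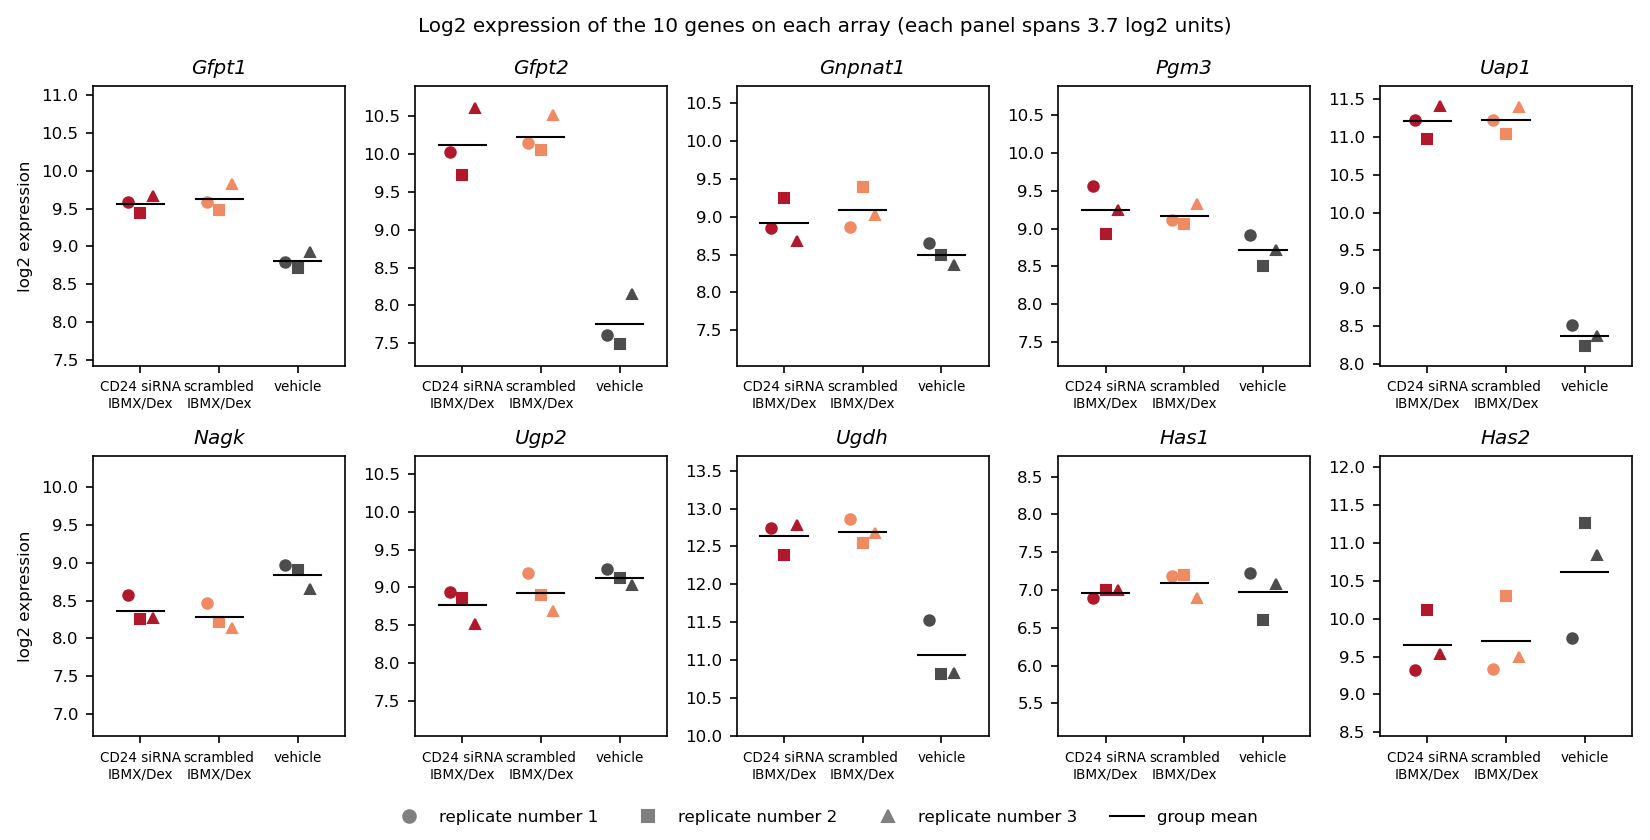
Log2 expression of the 10 genes on each array, 1 panel per gene, with CD24 siRNA + IBMX/Dex, scrambled siRNA + IBMX/Dex and vehicle from left to right, symbols for replicate numbers and a line at each group mean. Each panel spans the same number of log2 units, so heights can be compared: Uap1 (mean 11.21 in CD24 siRNA cells and 11.22 in scrambled siRNA cells against 8.37 in vehicle cells) and Gfpt2 (10.12 in CD24 siRNA cells and 10.23 in scrambled siRNA cells against 7.75 in vehicle cells) show the widest gaps between IBMX/Dex and vehicle means, and the Has1 groups overlap.

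Gfpt2 encodes 1 of the 2 forms of the entry enzyme. It had 10.03, 9.72 and 10.61 in CD24 siRNA cells, 10.14, 10.05 and 10.51 in scrambled siRNA cells, and 7.61, 7.49 and 8.15 in vehicle cells. Every IBMX/Dex array lay above every vehicle array, by more than the spread within any group. Gfpt2 rose 5.16-fold in CD24 siRNA cells (log2 2.37 ± 0.25 (SE), adjusted p = 0.00136) and 5.59-fold in scrambled siRNA cells (2.48 ± 0.25, adjusted p = 0.00111), where it ranked 13 by fold change among the genes tested.

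Gfpt1, the other form, is the one found in most tissues. Its values were 9.58, 9.44 and 9.67 in CD24 siRNA cells, 9.58, 9.48 and 9.82 in scrambled siRNA cells, and 8.79, 8.72 and 8.92 in vehicle cells. The IBMX/Dex and vehicle arrays again did not overlap, with a smaller gap than for Gfpt2. Gfpt1 rose 1.68-fold in CD24 siRNA cells (log2 0.75 ± 0.12, adjusted p = 0.00892) and 1.76-fold in scrambled siRNA cells (0.81 ± 0.12, adjusted p = 0.0064). Taken by replicate number, the log2 change of Gfpt2 exceeded that of Gfpt1 by 1.63, 1.52 and 1.70 in CD24 siRNA cells and by 1.75, 1.80 and 1.46 in scrambled siRNA cells. The excess averaged 1.62 in CD24 siRNA cells and 1.67 in scrambled siRNA cells, and the exact two-sided permutation test over arrays gave p = 0.1 for each, the smallest p that 3 against 3 arrays allow. Without CD24 siRNA replicate 3 the excess over all vehicle arrays was 1.43 in CD24 siRNA cells (exact permutation p = 0.1, the smallest that 2 against 3 arrays allow). The replicate number 3 array was the highest of its group for both genes in all 3 groups.

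The middle steps of the route differed less from vehicle. Gnpnat1, the acetyltransferase, had 8.85, 9.25 and 8.68 in CD24 siRNA cells, 8.86, 9.40 and 9.03 in scrambled siRNA cells, and 8.65, 8.50 and 8.36 in vehicle cells. Its lowest IBMX/Dex array, CD24 siRNA replicate 3 at 8.68, lay just above the highest vehicle array. The log2 difference from vehicle was 0.42 ± 0.18 in CD24 siRNA cells (adjusted p = 0.223, and 0.0534 with the block; 0.54 without replicate 3, adjusted p = 0.193) and 0.59 ± 0.18 in scrambled siRNA cells (adjusted p = 0.0934, and 0.0133 with the block).

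Pgm3, the phosphate mutase, had 9.56, 8.93 and 9.25 in CD24 siRNA cells, 9.11, 9.06 and 9.32 in scrambled siRNA cells, and 8.92, 8.51 and 8.72 in vehicle cells. The groups met without overlapping, CD24 siRNA replicate 2 (8.93) lying next to vehicle replicate 1 (8.92). Pgm3 was above vehicle by 0.53 ± 0.17 log2 units in CD24 siRNA cells (adjusted p = 0.108, and 0.0133 with the block; 0.222 and 0.0366 without replicate 3) and by 0.45 ± 0.17 in scrambled siRNA cells (adjusted p = 0.166, and 0.0263 with the block). All 3 same-numbered differences were positive for Gnpnat1 and for Pgm3 in both comparisons.

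Uap1, the pyrophosphorylase that completes UDP-N-acetylglucosamine, changed most among the 10 genes. It had 11.23, 10.98 and 11.41 in CD24 siRNA cells, 11.22, 11.04 and 11.40 in scrambled siRNA cells, and 8.51, 8.24 and 8.37 in vehicle cells. The lowest IBMX/Dex array stood more than 2 log2 units above the highest vehicle array. The rise was 7.14-fold in CD24 siRNA cells (log2 2.84 ± 0.15, adjusted p = 3.18e-05) and 7.18-fold in scrambled siRNA cells (2.84 ± 0.15, adjusted p = 3.05e-05), and Uap1 ranked 8 of the 12630 genes by fold change in both. By replicate number the rise was 2.72, 2.74 and 3.04 in CD24 siRNA cells and 2.71, 2.80 and 3.03 in scrambled siRNA cells.

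Nagk, the salvage kinase, was lower with IBMX/Dex. It had 8.57, 8.26 and 8.27 in CD24 siRNA cells, 8.47, 8.22 and 8.14 in scrambled siRNA cells, and 8.97, 8.90 and 8.65 in vehicle cells. No IBMX/Dex array reached the lowest vehicle array. In scrambled siRNA cells Nagk fell 1.48-fold (log2 -0.56 ± 0.14, adjusted p = 0.0461), but the call was lost when any 1 array other than scrambled siRNA replicate 1 was left out, with adjusted p between 0.0498 and 0.159 over the 9 omissions. In CD24 siRNA cells the difference was -0.48 ± 0.14 (adjusted p = 0.0804, and 0.00687 with the block), and without replicate 3 it was -0.43 (0.208, and 0.0224 with the block).

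**Figure D2:**
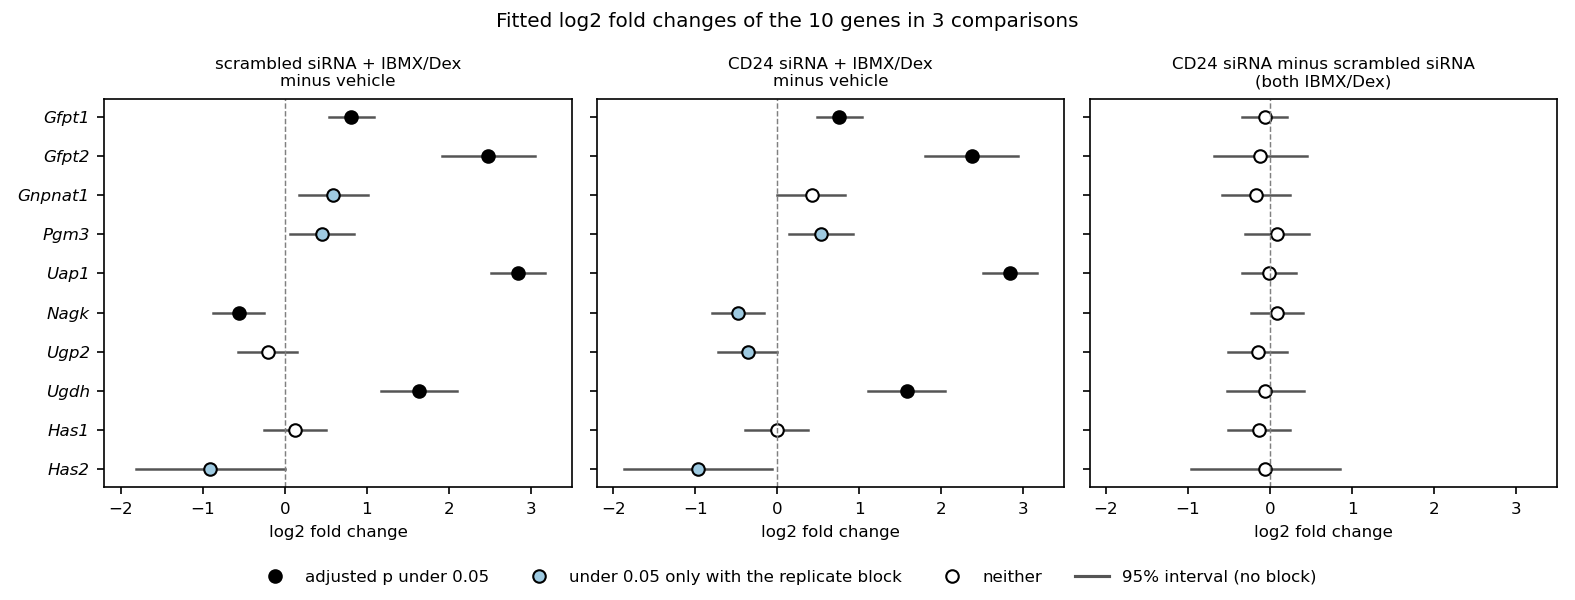
Fitted log2 fold changes of the 10 genes (points) with 95% intervals (lines) for scrambled siRNA + IBMX/Dex minus vehicle, CD24 siRNA + IBMX/Dex minus vehicle, and CD24 siRNA minus scrambled siRNA. Filled black points passed an adjusted p of 0.05, blue points passed only with the replicate block and open points passed neither; Uap1, Gfpt2, Ugdh and Gfpt1 are black on the right of 0 in the first 2 panels, and every interval in the last panel includes 0.

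In the UDP-glucuronic acid branch the 2 enzymes differed. Ugdh, which makes the UDP-glucuronic acid, had 12.74, 12.39 and 12.78 in CD24 siRNA cells, 12.87, 12.54 and 12.68 in scrambled siRNA cells, and 11.53, 10.81 and 10.83 in vehicle cells. The groups with IBMX/Dex lay wholly above vehicle, with vehicle replicate 1 the closest to them. Ugdh rose 2.99-fold in CD24 siRNA cells (log2 1.58 ± 0.21, adjusted p = 0.00373) and 3.11-fold in scrambled siRNA cells (1.64 ± 0.21, adjusted p = 0.00302).

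Ugp2, the enzyme upstream of Ugdh, had 8.94, 8.86 and 8.52 in CD24 siRNA cells, 9.19, 8.90 and 8.69 in scrambled siRNA cells, and 9.24, 9.13 and 9.03 in vehicle cells. CD24 siRNA arrays lay below all vehicle arrays, whereas scrambled siRNA replicate 1 overlapped with vehicle. The log2 difference from vehicle was -0.36 ± 0.16 in CD24 siRNA cells (adjusted p = 0.224, and 0.0292 with the block; -0.23 without replicate 3, adjusted p = 0.496, and 0.117 with the block) and -0.21 ± 0.16 in scrambled siRNA cells (adjusted p = 0.497). The replicate number 1 array was the highest of its group for Ugp2 and for Nagk in all 3 groups.

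Neither Has1 nor Has2 was called without the block, and Has2 was called lower in both groups with it. Has2, the main synthase of many mesenchymal cells, had 9.32, 10.12 and 9.53 in CD24 siRNA cells, 9.34, 10.30 and 9.50 in scrambled siRNA cells, and 9.74, 11.27 and 10.84 in vehicle cells. The replicate number 2 array was the highest in each group, and the groups overlapped because vehicle replicate 1 lay low. By replicate number, Has2 was below vehicle by a log2 difference of -0.43, -1.16 and -1.32 in CD24 siRNA cells and of -0.41, -0.98 and -1.35 in scrambled siRNA cells. The mean differences were -0.97 ± 0.40 in CD24 siRNA cells (adjusted p = 0.197, and 0.0042 with the block) and -0.91 ± 0.40 in scrambled siRNA cells (adjusted p = 0.219, and 0.00541 with the block). Leaving out CD24 siRNA replicate 3 gave -0.90 (0.368, and 0.0232 with the block) in CD24 siRNA cells. Without vehicle replicate 1 the mean differences were -1.40 (adjusted p = 0.0453) in CD24 siRNA cells and -1.35 (0.0488) in scrambled siRNA cells.

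Has1, a second synthase, was near the level set for testing. Its values were 6.89, 7.0 and 7.0 in CD24 siRNA cells, 7.19, 7.20 and 6.90 in scrambled siRNA cells, and 7.23, 6.60 and 7.08 in vehicle cells. All 3 groups overlapped. The difference from vehicle was -0.01 (95% interval -0.39 to 0.37, and -0.03 without replicate 3) in CD24 siRNA cells and 0.12 (-0.25 to 0.50) in scrambled siRNA cells. The third synthase gene, Has3, differed from vehicle by 0.07 ± 0.15 in CD24 siRNA cells and by 0.06 ± 0.15 in scrambled siRNA cells.

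Taken by overlap alone, 8 of the 10 genes had no overlap between the CD24 siRNA and vehicle arrays, where 25.8% of all genes tested had none. Between scrambled siRNA and vehicle arrays 7 of 10 had none, beside 25.2% of all genes. The exceptions were Has1 and Has2 in both comparisons and Ugp2 in scrambled siRNA cells. Leaving out CD24 siRNA replicate 3, whose Cd24a level goes against its label, cannot create an overlap, so the 8 genes again had none by construction. Has1 and Has2 overlapped with vehicle in that setting too, and 34.4% of all genes then had no overlap. When that array was left out of the fit, the same 4 genes were called higher in CD24 siRNA cells, beside 2.54% of all genes tested called in either direction and 1.29% called higher. Their log2 fold changes were then 0.70 for Gfpt1, 2.12 for Gfpt2, 2.74 for Uap1 and 1.51 for Ugdh. With the block and without that array 7 of the 10 were called, 5 higher and 2 lower, beside 14.0% of all genes, 7.28% higher and 6.68% lower, and the call of Ugp2 was lost.

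Between the siRNA groups, both with IBMX and Dex, the 10 genes lay close together. None of the 10 was called, as was none of the 12630 genes (0.0%), with limma with or without the block. At an unadjusted p under 0.05, 0 of the 10 genes passed, and 30 of all genes did (219 with the block, and still 0 of the 10). No group of 3 arrays was separate from the other for any of the 10, beside 2.41% of all genes. The log2 differences of CD24 siRNA from scrambled siRNA cells ran from -0.17 for Gnpnat1 to 0.09 for Nagk, with a median of -0.06 beside -0.01 over all genes.

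For Uap1 the difference was -0.01, with a 95% interval of -0.34 to 0.32, and its same-numbered differences were 0.02, -0.05 and 0.01. Gfpt2 differed by -0.12 (-0.68 to 0.45), Ugdh by -0.06 (-0.53 to 0.41) and Gfpt1 by -0.06 (-0.34 to 0.21). Of the 10 intervals only that of Has2 (-0.06, -0.96 to 0.85) reaches a difference as large as that of Cd24a, and a p above the threshold does not show that the groups are alike. Pgm3 had the widest single difference, 0.44 for number 1, with -0.12 and -0.07 for the other numbers. The excess of the Gfpt2 change over that of Gfpt1 differed by -0.05 between the siRNA groups (exact permutation p = 0.8). Without CD24 siRNA replicate 3 it differed by -0.24 (exact permutation p = 0.1, the smallest that 2 against 3 arrays allow). With the array labelled CD24 siRNA replicate 3 left out, the differences ran from -0.36 for Gfpt2 to 0.14 for Nagk, and all adjusted p were 1.

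**Figure D3:**
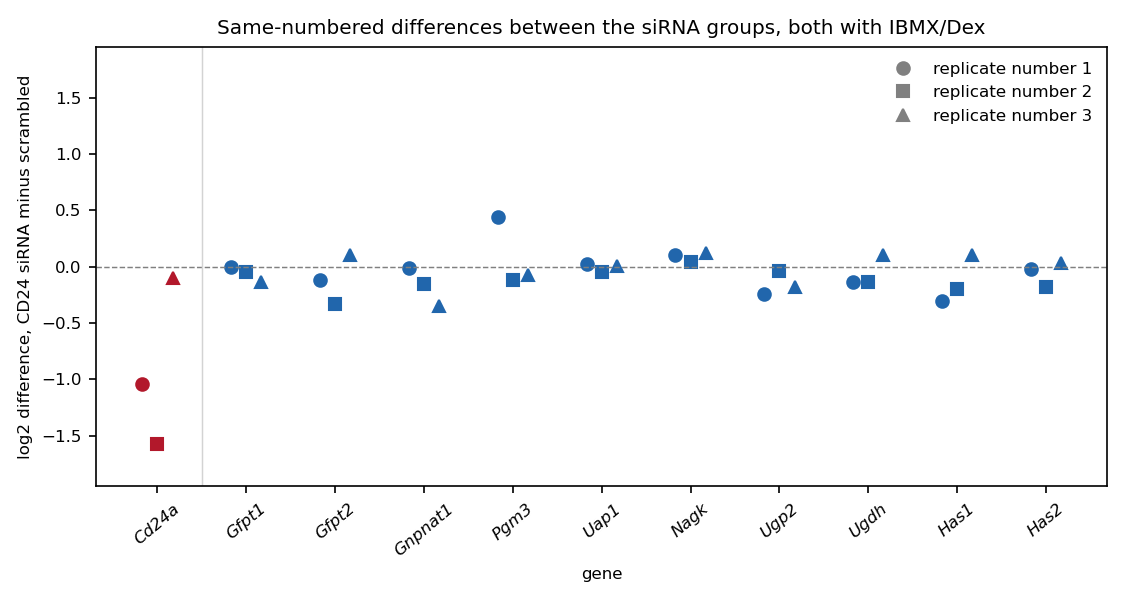
Log2 difference of CD24 siRNA minus scrambled siRNA, both with IBMX/Dex, for each replicate number (symbols), for Cd24a (red) and the 10 genes (blue). Cd24a lies at -1.04 and -1.57 for numbers 1 and 2 and at -0.10 for number 3, whereas the 10 genes lie between -0.35 and 0.44.

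Around the 10 genes, 8 lists of 147 genes that supply, use or accompany the pathway were counted, and 119 of them were tested. Called genes in CD24 siRNA cells numbered 8 higher and 9 lower, and in scrambled siRNA cells 6 higher and 8 lower. With the block the counts were 17 higher and 18 lower in CD24 siRNA cells, and 23 higher and 20 lower in scrambled siRNA cells. As shares of the 119 these are 14.3% in CD24 siRNA cells and 11.8% in scrambled siRNA cells, beside 6.65% and 6.94% of all genes tested. With the block they are 29.4% in CD24 siRNA cells and 36.1% in scrambled siRNA cells, beside 22.4% and 23.3% of all genes. Without CD24 siRNA replicate 3 the CD24 siRNA comparison called 4 higher and 3 lower (5.88%, beside 2.54% of all genes), and 16 higher and 11 lower with the block (22.7%, beside 14.0%). The medians of the 8 lists then lay between -0.17 and 0.29. By list and without the block, 1 gene was then higher and 1 lower for hyaluronan binding and breakdown, and 3 were higher for supply. Among other enzymes of amino sugar and UDP-sugar metabolism 1 was then lower, as was 1 glycogen gene. The remaining lists then had no called gene. Between the siRNA groups none of the 119 was called.

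The list of genes that bind, break down or organise hyaluronan had 18 tested members and also holds the synthase gene Has3. Of these 18, 3 rose and 1 fell in each IBMX/Dex group, with a median log2 fold change of 0.22 in CD24 siRNA cells and 0.16 in scrambled siRNA cells. With the block 5 rose in CD24 siRNA cells and 7 in scrambled siRNA cells, and 1 fell in each. Vcan, the hyaluronan-binding proteoglycan versican, had 12.78, 12.78 and 12.89 in CD24 siRNA cells, 12.65, 12.90 and 12.90 in scrambled siRNA cells, and 11.59, 11.89 and 11.75 in vehicle cells. The IBMX/Dex arrays of Vcan lay wholly above vehicle, a rise of 2.10-fold in CD24 siRNA cells (adjusted p = 0.00169) and of the same size in scrambled siRNA cells (adjusted p = 0.00154). Tnfaip6, which transfers protein chains onto hyaluronan, had 7.28, 7.39 and 7.23 in CD24 siRNA cells, 7.91, 7.64 and 7.30 in scrambled siRNA cells, and 6.40, 6.65 and 6.21 in vehicle cells. With no overlap between IBMX/Dex and vehicle arrays, it rose 1.84-fold in CD24 siRNA cells (adjusted p = 0.0201) and 2.29-fold in scrambled siRNA cells (adjusted p = 0.00548). Against these, Cemip, which takes part in the breakdown of hyaluronan, had 6.22, 6.19 and 6.25 in CD24 siRNA cells, 6.46, 6.38 and 6.12 in scrambled siRNA cells, and 7.34, 7.95 and 7.57 in vehicle cells. Cemip fell 2.64-fold in CD24 siRNA cells (adjusted p = 0.00219) and 2.46-fold in scrambled siRNA cells (adjusted p = 0.00282) to values under the level set for testing (6.51). It met the testing rule only through the 3 vehicle arrays, where it was high, so its calls are not independent of that rule. Tnfaip6 was under that level on vehicle replicates 1 and 3. Cemip2, a relative of Cemip, went the other way and was called higher only with the block (limma adjusted p 0.0359 in CD24 siRNA cells and 0.0106 in scrambled siRNA cells). Hyal2 and Hyal3 were not called against vehicle in either group, with or without the block. Habp4, a binding protein named for hyaluronan, rose 1.41-fold in CD24 siRNA cells (adjusted p = 0.0213) and 1.44-fold in scrambled siRNA cells (adjusted p = 0.0167). In scrambled siRNA cells the calls of Vcan, Tnfaip6 and Cemip held in all 9 omissions of 1 array, while that of Habp4 was lost without scrambled siRNA replicates 2 or 3 or vehicle replicate 3 (adjusted p up to 0.0801). The genes tested were chosen once on all 9 arrays, also for these omissions. Tnfaip6 and Habp4 lost their calls in CD24 siRNA cells without vehicle replicate 3 or any 1 CD24 siRNA array (adjusted p up to 0.0755 for Tnfaip6 and 0.0788 for Habp4).

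Genes that supply hexose phosphate, glutamine, acetyl-CoA and UTP had 17 tested members, with medians of 0.19 in CD24 siRNA cells and 0.31 in scrambled siRNA cells. The list also holds Ctps and Ctps2, which use UTP and do not supply it. Glul, the synthetase of glutamine, which is the amino donor of Gfpt1 and Gfpt2, had 11.91, 11.80 and 12.14 in CD24 siRNA cells, 12.04, 11.94 and 12.12 in scrambled siRNA cells, and 9.66, 9.73 and 9.77 in vehicle cells. The IBMX/Dex arrays lay about 2 log2 units above vehicle with no overlap, and Glul rose 4.70-fold in CD24 siRNA cells (adjusted p = 3.18e-05) and 4.99-fold in scrambled siRNA cells (adjusted p = 3.02e-05). Acss2, an acetyl-CoA synthetase, fell 1.60-fold in CD24 siRNA cells (adjusted p = 0.0316) and 1.55-fold in scrambled siRNA cells (adjusted p = 0.0392), a call that in scrambled siRNA cells stood in 1 of 9 omissions, that of vehicle replicate 1 (adjusted p 0.0384 to 0.117), and in CD24 siRNA cells in 3 of 9 (up to 0.11). Cad, an enzyme of pyrimidine synthesis, rose 1.62-fold in CD24 siRNA cells (adjusted p = 0.0235, lost without CD24 siRNA replicates 1 or 2 or vehicle replicates 2 or 3, up to 0.0788). The adjusted p of Cad in scrambled siRNA cells was 0.0504 (1.47-fold), and 0.0107 with the block. It is named after its values were seen, to complete the count of CD24 siRNA cells. With the block 5 of the list were higher and 2 lower in CD24 siRNA cells, and 7 higher and 2 lower in scrambled siRNA cells. The 2 lower were Acss2 and Ctps2 in each group (for Ctps2, limma adjusted p with the block 0.00285 in CD24 siRNA cells and 0.00321 in scrambled siRNA cells).

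Among other enzymes of amino sugar and UDP-sugar metabolism 4 of 17 tested were called lower in both groups, with 1 higher in CD24 siRNA cells and none higher in scrambled siRNA cells. The medians over the list were -0.08 in CD24 siRNA cells and -0.06 in scrambled siRNA cells, and with the block 2 were higher and 4 lower in each. Renbp, an epimerase that acts on N-acetylglucosamine, had 8.53, 8.74 and 8.56 in CD24 siRNA cells, 8.65, 8.97 and 8.87 in scrambled siRNA cells, and 9.54, 9.63 and 10.11 in vehicle cells. It lay below vehicle on all IBMX/Dex arrays and fell 2.22-fold in CD24 siRNA cells (adjusted p = 0.00562) and 1.90-fold in scrambled siRNA cells (adjusted p = 0.0128). Uap1l1, a relative of Uap1, fell 1.73-fold in CD24 siRNA cells (adjusted p = 0.0334) and 1.64-fold in scrambled siRNA cells (adjusted p = 0.0464), opposite in direction to Uap1. Galk2, a kinase of N-acetylgalactosamine, fell 1.37-fold in CD24 siRNA cells (adjusted p = 0.035) and 1.43-fold in scrambled siRNA cells (adjusted p = 0.0214). Amdhd2, a deacetylase of the N-acetylglucosamine phosphate, fell 1.48-fold in CD24 siRNA cells (adjusted p = 0.0412) and 1.45-fold in scrambled siRNA cells (adjusted p = 0.0495). Renbp kept its call in all 9 omissions in both groups. In scrambled siRNA cells the call of Uap1l1 stood only without scrambled siRNA replicate 1 and that of Amdhd2 only without vehicle replicate 2 (adjusted p up to 0.157 and 0.138), and Galk2 lost its call without scrambled siRNA replicates 2 or 3 or vehicle replicate 3 (up to 0.0931). The CD24 siRNA comparison kept the call of Uap1l1 in 5 of 9 omissions, of Galk2 in 3 and of Amdhd2 in 1 (adjusted p up to 0.112, 0.108 and 0.124). Uxs1, which turns UDP-glucuronic acid into UDP-xylose and is likewise named after its values were seen, rose 1.42-fold in CD24 siRNA cells (adjusted p = 0.0352, kept in 1 of 9 omissions) and had an adjusted p of 0.0532 in scrambled siRNA cells, and 0.018 with the block.

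The list of users of UDP-N-acetylglucosamine in glycosylation had 15 tested genes. It also holds Ugcg and Uggt1, which use UDP-glucose, and Oga, which removes N-acetylglucosamine from proteins. Among these 15 genes and 13 tested nucleotide sugar transporters none was called in scrambled siRNA cells. In CD24 siRNA cells 1 was, Mgat3, the transferase of the bisecting N-acetylglucosamine, which was named after its values were seen. Mgat3 fell 1.52-fold (adjusted p = 0.04, kept in 1 of 9 omissions). Its adjusted p in scrambled siRNA cells was 0.0678, and 0.0242 with the block. The medians of the glycosylation list were -0.12 in CD24 siRNA cells and -0.03 in scrambled siRNA cells, and those of the transporters were 0.07 in CD24 siRNA cells and 0.19 in scrambled siRNA cells. With the block 4 genes of the glycosylation list were lower in each group, and 1 was higher in scrambled siRNA cells. Ugcg was among the 4 lower (limma adjusted p with the block 0.00563 in CD24 siRNA cells and 0.0157 in scrambled siRNA cells). Of the transporters, 1 was higher and 1 lower in CD24 siRNA cells with the block, and 1 higher and 2 lower in scrambled siRNA cells.

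Of 25 genes that build other glycosaminoglycans 1 rose and 1 fell in each group. Glce, an epimerase of heparan sulphate, rose 1.36-fold (adjusted p = 0.0285) in CD24 siRNA cells and 1.49-fold (adjusted p = 0.0104) in scrambled siRNA cells. Dse, the epimerase of dermatan sulphate, fell 1.61-fold in CD24 siRNA cells (adjusted p = 0.0158) and 1.65-fold in scrambled siRNA cells (adjusted p = 0.0117). Of 8 glycogen genes Ppp1r3c, a targeting subunit of the phosphatase that acts on glycogen synthase, fell 2.05-fold in CD24 siRNA cells (adjusted p = 0.0087) and 1.81-fold in scrambled siRNA cells (adjusted p = 0.0184). These 3 calls were lost in scrambled siRNA cells without scrambled siRNA replicate 3 (adjusted p 0.0563, 0.0573 and 0.0802). In CD24 siRNA cells Ppp1r3c kept its call in all 9 omissions, Dse lost it without CD24 siRNA replicates 2 or 3 (up to 0.0632) and Glce in 6 of the 9 (up to 0.0987). Of 6 genes of the unfolded protein response, the transcription factor genes Xbp1, Atf4 and Atf6 were not called in either group, with or without the block. Ddit3, which also encodes a transcription factor, was called only with the block, as lower (limma adjusted p 0.00471 in CD24 siRNA cells and 0.00625 in scrambled siRNA cells). Hspa5 was called only with the block, as higher (limma adjusted p 0.00306 in CD24 siRNA cells and 0.00281 in scrambled siRNA cells). The 1 called without the block was the chaperone gene Dnajb9, which rose 1.72-fold in CD24 siRNA cells (adjusted p = 0.049) and equally in scrambled siRNA cells (adjusted p = 0.0476). That call was lost in all 9 omissions in CD24 siRNA cells (up to 0.137), and in scrambled siRNA cells it stood only without CD24 siRNA replicate 1 (up to 0.153). With the block 2 of the glycosaminoglycan genes were higher and 3 lower in each group, and 2 of the unfolded protein response genes were higher and 1 lower in each. The glycogen genes then had 2 lower in CD24 siRNA cells, and 1 higher and 3 lower in scrambled siRNA cells.

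**Figure D4:**
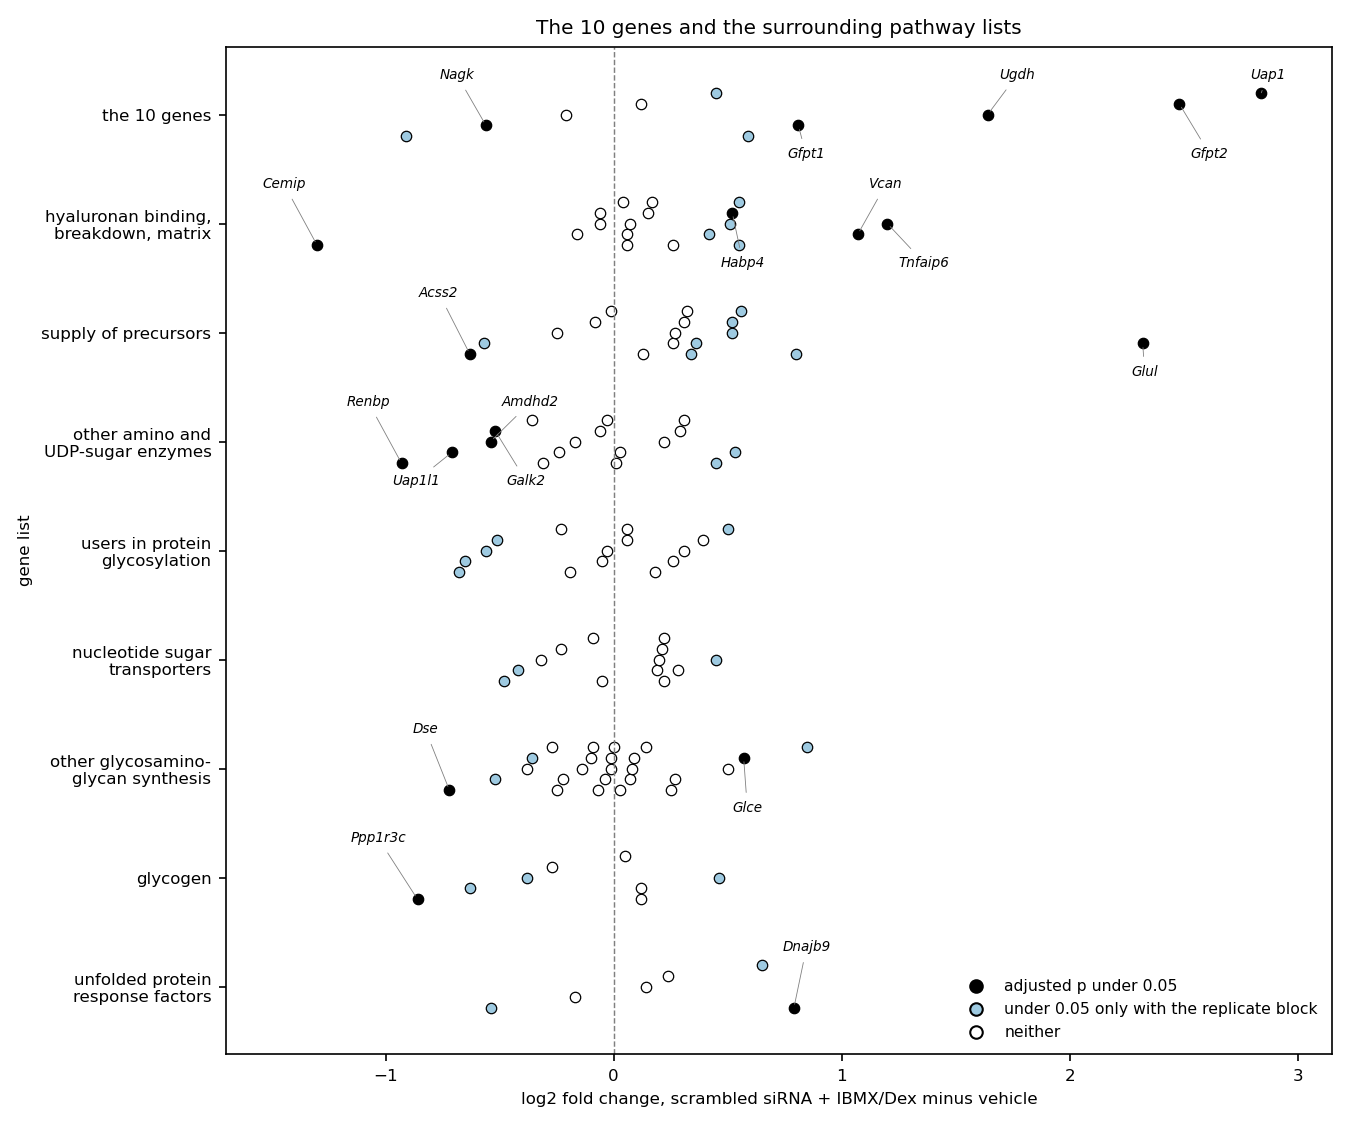
Fitted log2 fold change of scrambled siRNA + IBMX/Dex minus vehicle for the 10 genes (top row) and the tested genes of 8 surrounding lists (1 point per gene, 1 row per list, moved apart vertically so that points can be seen). Filled black points passed an adjusted p of 0.05 and are named, blue points passed only with the replicate block; Glul (2.32) is the point outside the top row that lies furthest to the right, near Gfpt2 (2.48), and Cemip (-1.30) lies furthest to the left.

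Over the 9 arrays the pattern of Uap1 was most like those of Rgs2 (Pearson r 0.997), Glul (0.997), Prg4 (0.996), Fkbp5 (0.995) and Per1 (0.992), among the tested genes outside the 10. The arrays fall into 2 clusters, IBMX/Dex and vehicle, so these values mainly state that the genes separate those clusters in the same direction with little spread inside them. Within the 10 genes the correlation with Uap1 was 0.982 for Gfpt2, 0.977 for Gfpt1 and 0.972 for Ugdh, 0.817 for Pgm3 and 0.695 for Gnpnat1. It was below 0 for Nagk (-0.857), Has2 (-0.731) and Ugp2 (-0.631), and 0.154 for Has1.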

How the data were processed

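RNA of 9 samples of 3T3-L1 cells was measured on single-colour arrays. The log2 values were deposited by the authors after RMA, run with oligo per the submitters' processing notes, whose versions were not stated. That procedure equalises the distributions of the arrays, which takes out any shift common to most transcripts, and it shrinks differences where probe sets are dim. With 3 arrays a group, the number of arrays limits the precision. Sample titles gave the groups and the numbers.

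Of 41345 probe sets, 23521 had 1 gene symbol in the platform annotation, 1814 had several and 16010 were not named here. Each gene was represented by its brightest probe set, and 12630 genes were tested, those with at least 3 values at or above the median of all values (6.51). Group means over all 9 arrays were fitted with lmFit and eBayes (limma 3.58.1 in R 4.3.3), two-sided, with Benjamini-Hochberg adjustment over all genes tested. The fit was tested on simulated data. Intervals are 95% intervals of that fit.

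Deviations from group means correlated at 0.377 to 0.732 between arrays of the same number (9 pairs) and at -0.589 to 0.116 between other numbers (18 pairs). The numbers from the titles were therefore used as the block of the second fit. The main fit, which decides the calls, and the permutation tests do not pair the arrays.

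The 10 genes and the lists around them were chosen with earlier results of these data known. From each list the text names up to 6 called genes of scrambled siRNA against vehicle with the smallest p, together with called list genes of CD24 siRNA against vehicle that were added after their values were seen, and for likeness the 5 genes that correlate best with Uap1. Some further list genes are named to say what a list holds or how other genes of the same list went with the block. Alternatives were the replicate block, omission of arrays or numbers, other filters (none, or the 75th percentile), quantile normalization, median centring, averaging the probe sets of a gene, and an intensity trend. The block without CD24 siRNA replicate 3, and list counts, overlaps and the Gfpt2 excess without it, were chosen after seeing the data.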

Additional observations from a re-analysis of the deposited data

How the results depend on the processing

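The calls of Uap1, Gfpt1, Gfpt2 and Ugdh held in both comparisons with vehicle under all 20 alternatives, with adjusted p at most 0.0303 in scrambled siRNA cells and 0.0437 in CD24 siRNA cells. With the replicate block, calls among the 10 genes numbered 8 in CD24 siRNA cells, 7 without the array labelled CD24 siRNA replicate 3, and 6 after leaving out number 1, 2 or 3. In scrambled siRNA cells they numbered 8 with the block, also without number 1 or that array, and 6 without number 2 or 3, where Gnpnat1 and Pgm3 lost their calls. Calls over all genes against vehicle were 840 in CD24 siRNA cells and 876 in scrambled siRNA cells. With the block they were 2831 in CD24 siRNA cells and 2942 in scrambled siRNA cells, and with the block and without CD24 siRNA replicate 3 they were 1763 in CD24 siRNA cells and 2924 in scrambled siRNA cells. Leaving out numbers 1, 2 and 3 in turn, with the block, gave 1299, 1755 and 1528 in CD24 siRNA cells and 1351, 1792 and 1758 in scrambled siRNA cells. Omission of single arrays gave 321 to 857 in CD24 siRNA cells and 313 to 852 in scrambled siRNA cells. These fits hold different numbers of arrays, and the cause of the differences between their counts was not tested.

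Sign changes were found in uncalled values only. Has1 against vehicle ran from -0.20 to 0.12 over single omissions in CD24 siRNA cells, was 0.16 and 0.026 without numbers 1 and 3 with the block, and 0.0015 after quantile normalization. In scrambled siRNA cells Has1 ran from -0.063 to 0.25 over single omissions and was -0.11 without number 2 with the block. Between CD24 and scrambled siRNA cells the single omissions gave -0.13 to 0.032 for Gfpt1, -0.36 to 0.081 for Gfpt2, -0.072 to 0.24 for Pgm3, -0.11 to 0.10 for Uap1, -0.014 to 0.18 for Nagk, -0.14 to 0.062 for Ugdh and -0.29 to 0.24 for Has2. With the block, Pgm3 was -0.10 without number 1, Uap1 0.013 and Has2 0.0046 without number 2, and Has2 0.0089 without CD24 siRNA replicate 3. Uap1 was 0.013 after quantile normalization. The filter at the 75th percentile left Has1 out. The cause of these sign changes was not tested. Beyond the calls given in the report the block changed no call of the 10 genes.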
